A study of Homo sapiens with 12 samples.

Results

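Long noncoding and antisense RNA genes were described in OPM-1 cells, an established human multiple myeloma line, treated for 48 h with DMSO, the solvent control, with lenalidomide (LEN) at 0.1 μM, with AI-10-104 at 1 μM, or with LEN+AI-10-104 at those doses, with 3 samples per condition and 12 in all. LEN makes the ubiquitin ligase cereblon destroy the transcription factors IKZF1 and IKZF3, and AI-10-104 keeps RUNX transcription factors from binding their partner CBFβ. The genes were chosen by symbol, as those that start with LINC or end with -AS1, -AS2, -AS3 or -IT1, together with MALAT1, NEAT1 and GAS5, and had to average 0.5 RPKM or more across the 12 samples. RPKM is a read count scaled to the length of the gene and to the sequencing depth of the sample. Of 38478 rows in the expression matrix, 2025 carried such a symbol, and 282 of these reached the minimum and are described here. They were 193 antisense genes, 83 LINC genes, 3 intronic genes (ALMS1-IT1, KCNQ5-IT1 and NPTN-IT1) and the 3 genes taken by name. Another 904 of the 2025 rows were listed at 0 in all 12 samples. All samples came from 1 cell line. The study describes the samples of a condition as biological replicates from independent experiments, which the labels leave unsaid.

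Long noncoding RNAs are transcripts that are often, but not always, spliced and polyadenylated like mRNAs and carry no long reading frame. Those named LINC lie between protein-coding genes, whereas an antisense gene is named after the gene on the opposite strand that it overlaps or faces, here called its sense partner. A few are understood in detail: NEAT1 is the scaffold of the nuclear bodies called paraspeckles, MALAT1 is kept in nuclear speckles, where splicing factors gather, and GAS5 carries small nucleolar RNAs (snoRNAs) in its introns and is degraded when it is translated. For most of the others the function is not known. The name is not always a good guide: in RefSeq 269 of the 282 genes are typed as long noncoding RNA, while 9 are now listed as protein-coding, mostly for small proteins, among them LINC00493 (SMIM26), LINC01420 (NBDY, a microprotein of the mRNA decapping complex) and TOPORS-AS1 (SMIM27).

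The promoters of 6 called genes are given first, because AI-10-104 acts on RUNX and LEN on IKZF proteins, whose DNA motifs are short. They are the 4 called genes whose window held a RUNX core and 2 others, so the motif chose most of them, and the calls of LINC00265, CELSR3-AS1 and PAXIP1-AS1 were among the less stable ones. RefSeq (GRCh38.p14) gave a window from 250 bases before the start of the gene to 50 bases after it for 221 of the 282 genes and for 18 of the 25 that passed the test in some comparison below. The RUNX core motif was searched as TGTGGT and TGCGGT on both strands, and 4 of those 18 windows held it. Capitals mark the RUNX core in the first 4 windows (as its reverse complement in CELSR3-AS1) and TGGGAA, the core bound by IKAROS family proteins, in LINC00173. No searched motif was found in the window of SCOC-AS1, printed because this gene rose with AI-10-104. The windows are written 5′ to 3′ on the strand of each gene: LINC00673 at chr17:72592755-72593054 (minus strand), LINC00265 at chr7:39733318-39733617 (plus), CELSR3-AS1, named LINC02585 in RefSeq, at chr3:48663518-48663817 (plus), PAXIP1-AS1, named PAXIP1-DT, at chr7:155003183-155003482 (plus), LINC00173 at chr12:116533172-116533471 (plus) and SCOC-AS1 at chr4:140373343-140373642 (minus).
LINC00673: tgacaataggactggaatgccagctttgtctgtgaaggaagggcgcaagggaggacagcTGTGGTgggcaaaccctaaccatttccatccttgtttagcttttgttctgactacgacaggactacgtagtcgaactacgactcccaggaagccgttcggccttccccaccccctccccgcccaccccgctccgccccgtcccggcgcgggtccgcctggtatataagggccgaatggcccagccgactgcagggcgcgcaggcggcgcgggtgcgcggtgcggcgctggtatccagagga
LINC00265: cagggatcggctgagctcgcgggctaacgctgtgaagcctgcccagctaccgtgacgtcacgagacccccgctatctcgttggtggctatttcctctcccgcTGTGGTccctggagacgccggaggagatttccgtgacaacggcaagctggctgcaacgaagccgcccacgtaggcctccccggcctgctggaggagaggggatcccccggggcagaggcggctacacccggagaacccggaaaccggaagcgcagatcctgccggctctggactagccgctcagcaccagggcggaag
CELSR3-AS1: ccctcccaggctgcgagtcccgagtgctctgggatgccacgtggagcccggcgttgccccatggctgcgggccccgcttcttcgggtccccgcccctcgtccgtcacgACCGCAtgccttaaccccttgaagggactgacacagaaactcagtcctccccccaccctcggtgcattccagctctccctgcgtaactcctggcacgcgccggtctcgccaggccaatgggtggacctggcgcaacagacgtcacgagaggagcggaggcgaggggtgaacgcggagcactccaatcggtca
PAXIP1-AS1: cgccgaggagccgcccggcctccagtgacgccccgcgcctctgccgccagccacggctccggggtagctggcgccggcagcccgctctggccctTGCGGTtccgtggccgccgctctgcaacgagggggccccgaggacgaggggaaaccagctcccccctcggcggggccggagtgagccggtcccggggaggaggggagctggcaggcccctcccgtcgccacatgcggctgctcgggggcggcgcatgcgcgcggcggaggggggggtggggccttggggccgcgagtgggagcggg
LINC00173: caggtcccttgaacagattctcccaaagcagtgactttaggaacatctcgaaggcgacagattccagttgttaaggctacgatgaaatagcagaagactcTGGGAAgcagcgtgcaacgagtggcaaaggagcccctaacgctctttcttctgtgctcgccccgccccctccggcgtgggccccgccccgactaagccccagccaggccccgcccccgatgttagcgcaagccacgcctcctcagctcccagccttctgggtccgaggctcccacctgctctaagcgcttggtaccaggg
SCOC-AS1: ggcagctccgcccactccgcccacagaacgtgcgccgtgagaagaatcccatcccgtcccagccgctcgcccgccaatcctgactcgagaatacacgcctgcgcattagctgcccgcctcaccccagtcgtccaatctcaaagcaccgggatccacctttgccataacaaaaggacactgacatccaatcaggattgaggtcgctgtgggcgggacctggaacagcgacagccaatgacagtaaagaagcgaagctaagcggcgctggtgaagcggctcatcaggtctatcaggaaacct

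In LINC00673 the RUNX core began 191 bases before the start of the gene and in LINC00265 148 bases before it. Over all 221 windows of the noncoding and antisense genes, 44 (19.9%) held a RUNX core in either form, beside 19.5% of 27305 promoters of the same length, so the letters were as common as in promoters at large. The IKAROS core was in 21.3% of the 221 windows and in 24.4% of all promoters. The interferon-stimulated response element was in 2.26% and 3.65%, and was found in 1 called gene, LINC01138. The metal response motif, as TGCACNC or TGCGCNC, was in 36.7% of the windows and 29.1% of all promoters, and the windows were richer in G and C (median 64.7% against 58.0%). NEAT1, ZRANB2-AS1, LINC00861, LINC01260, PTOV1-AS2, SEPSECS-AS1 and TAPT1-AS1 had no entry in the promoter table. A match is a run of letters and not a bound site.

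Reads were recovered from the RPKM values and gene lengths and came out whole for 100% of values, with 16352548 to 31386210 reads on genes per sample. The combination samples were the shallowest on average. All 8 plasma cell markers were expressed, for example SDC1 at 146 RPKM and IRF4 at 207 RPKM on average, while of 7 markers of other cells only HBB, at 19.8 RPKM, reached the minimum. Samples of a condition correlated at 0.989 to 0.993 on the log2 scale. The read counts of AI-10-104 replicate 2 lay furthest from those of its own condition, with a chi-square per degree of freedom of 8.35 and 10.9 against the other two AI-10-104 samples, where other replicate pairs gave 1.96 to 7.31, and results that rest on it are given with and without it.

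Most of the noncoding and antisense genes were faint. Their median was 1.51 RPKM (71.4 reads per sample on average), against 8.59 RPKM and 864.5 reads for the 11241 genes tested. The 83 LINC genes had a median of 1.65 RPKM and the 193 antisense genes 1.47 RPKM. Of the 282, 93 lay under 1 RPKM and 23 reached 10 RPKM, 8.16% beside 46.2% of all genes tested. With few reads the replicates scattered more: the median standard error (SE) of a log2 difference between conditions was 0.14 for these genes and 0.06 for all genes. The rule's minimum cut through the faint end, where LINC00174 (0.504 RPKM) and CEP83-AS1 (0.525) were just inside and FTO-IT1 (0.499) and CCDC183-AS1 (0.498) just outside.

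**Figure D1:**
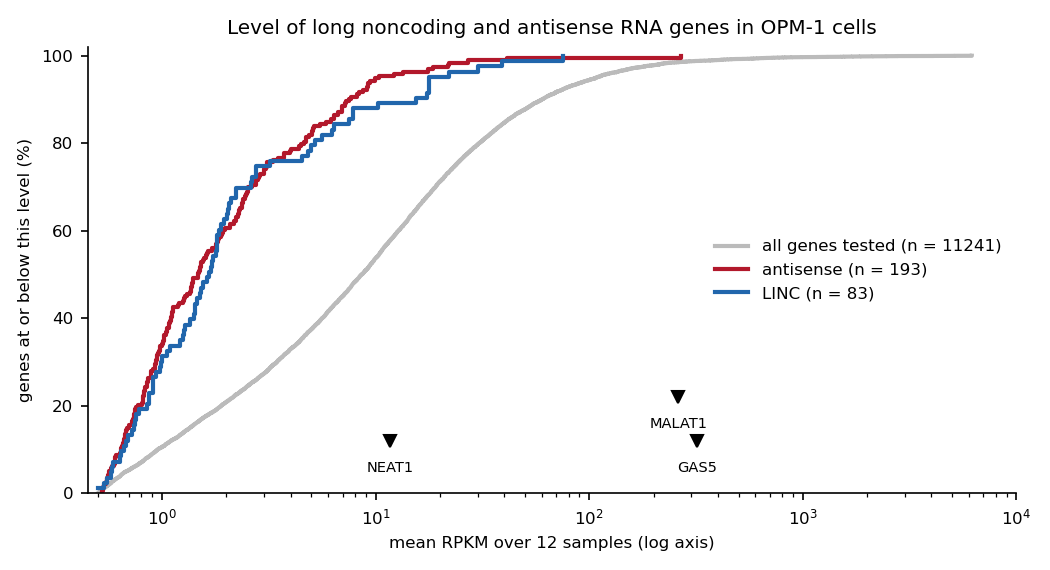
Share of genes (vertical axis, %) with a mean RPKM over the 12 samples at or below the value on the horizontal log axis, for all 11241 genes tested, the 193 antisense genes and the 83 LINC genes. Triangles mark the levels of NEAT1, MALAT1 and GAS5 and their height has no meaning; both noncoding curves rise well before the grey curve, since 93 of the 282 genes lie under 1 RPKM.

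A handful of genes stood far above the rest. GAS5, on chromosome 1, was the highest at a mean of 319 RPKM, followed by LRRC75A-AS1 on chromosome 17 (named SNHG29 in RefSeq) at 270 RPKM, which like GAS5 is an snoRNA host, and by MALAT1 on chromosome 11 at 261 RPKM. GAS5 holds 11 snoRNAs and LRRC75A-AS1 holds 3, and 8 of the 282 genes hold any. The next were LINC01287 (75.3 RPKM), OIP5-AS1 (41.2 RPKM), known for the destruction of the microRNA miR-7, LINC00493 (39.0), LINC01055 (30.1), IL10RB-AS1 (27.2), LINC00938 and FGD5-AS1 (each 22). NEAT1 followed further down at 11.7 RPKM. GAS5 was above LRRC75A-AS1 in all 12 samples, whereas the place of MALAT1 among the top 3 changed between samples. In MALAT1 83.7% of exon bases lie under an annotated transcript of the other strand, TALAM1, and in IL10RB-AS1 84.6% lie under exons of IFNAR2. Whether the counting used the strand is not given in the sources used here, so reads of such pairs cannot be told apart.

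Of all reads on genes, the 282 genes took 0.458% to 0.492% in the DMSO samples, 0.461% to 0.488% with LEN, 0.453% to 0.485% with AI-10-104 and 0.509% to 0.528% with both. The 3 combination samples lay above the other 9. Without GAS5, LRRC75A-AS1 and MALAT1 the share was 0.239% to 0.243% with both and at most 0.226% in any other sample.

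In the tests below a gene was called when limma gave an adjusted p of at most 0.05 (Benjamini-Hochberg over 11241 genes) and a change of at least 0.32 in log2(RPKM + 0.1) in either direction. Differences are on that scale, which understates the change of the faintest genes. Across 5 comparisons of conditions and 1 test of interaction, 25 of the 282 genes were called at least once: 15 antisense genes, 9 LINC genes and NEAT1. Shares of all genes are given below by comparison only, so the 25 cannot be set beside a like count. The other 257 were not called in any, among them MALAT1 and GAS5. The 3 DMSO samples served as controls for all 3 treatments, and the combination samples enter 4 of the 6 comparisons, so these comparisons are not independent.

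LEN alone was followed by 1 call among these genes. How far IKZF1 and IKZF3 protein fell at this dose was not measured in these samples. TOPORS-AS1, the gene for the small membrane protein SMIM27, was at 1.73, 1.89 and 1.77 RPKM in DMSO and at 1.40, 1.33 and 1.23 RPKM with LEN, so that the conditions did not overlap. In bulk RNA, fewer cells that make a transcript and less of it per cell cannot be told apart. It fell by 0.42 on the log2 scale (SE 0.08, limma adjusted p = 0.023). In the combination it was at 1.54, 1.73 and 1.60 RPKM, and there the change of -0.14 from DMSO did not pass. The single lower call compares with 0.0623% of all genes lower and 0.587% higher, and no noncoding or antisense gene was called higher with LEN. At an unadjusted p under 0.05 limma gave 15 higher (beside 6.57% of all genes) and 10 lower (beside 4.15%), and voom on the recovered reads gave 0 calls. TOPORS-AS1 lost its call without DMSO replicates 2 or 3 or without any one LEN replicate.

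The largest differences with LEN whose samples did not overlap with DMSO were not called. SOCS2-AS1, beside the cytokine feedback inhibitor SOCS2, was at 0.555, 0.807 and 0.409 RPKM in DMSO and 0.269, 0.229 and 0.363 with LEN (log2 difference -0.81, SE 0.31, limma adjusted p = 0.33), on 3 to 14 reads per sample. LINC00963 was at 0.737, 0.640 and 0.510 RPKM in DMSO and 1.09, 0.883 and 1.00 with LEN (0.59, SE 0.15, limma adjusted p = 0.11). USP2-AS1 was at 1.02, 1.09 and 1.06 in DMSO and 0.578, 0.851 and 0.691 with LEN (-0.53, SE 0.16, limma adjusted p = 0.19). Samples did not overlap between LEN and DMSO for 22 genes higher (7.80%, beside 9.42% of all genes) and 15 lower (5.32% beside 7.03%).

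AI-10-104, the RUNX inhibitor, was followed by 2 higher and 3 lower calls, beside 0.685% of all genes higher and 1.09% lower. SCOC-AS1 starts 254 bases from SCOC, which encodes a Golgi coiled-coil protein that takes part in autophagy, on the opposite strand of chromosome 4 (140283726 to 140373392). It was at 0.363, 0.328 and 0.326 RPKM in DMSO and 0.675, 0.773 and 0.835 RPKM with AI-10-104, on 14 to 46 reads per sample. Every AI-10-104 sample was higher than every DMSO and LEN sample, and the gene rose by 0.97 (SE 0.15, limma adjusted p = 0.0038). ZRANB2-AS1, on chromosome 1 (71046506 to 71067184), was at 0.968, 1.06 and 1.01 RPKM in DMSO and 1.78, 1.55 and 1.75 RPKM with AI-10-104 and rose by 0.69 (SE 0.08, limma adjusted p = 0.00078). Of its exon bases 43.3% lie under exons of ZRANB2, a splicing factor gene at 75.6 RPKM on the other strand. With LEN alone neither SCOC-AS1 nor ZRANB2-AS1 was called, but in both every LEN sample also lay above every DMSO sample.

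LINC00673, an intergenic RNA on chromosome 17 (72403322 to 72592804) whose promoter holds the RUNX core printed above, was the LINC gene that fell. It was at 7.33, 8.33 and 6.49 RPKM in DMSO, 7.13, 8.05 and 7.72 with LEN, 4.74, 5.39 and 4.57 with AI-10-104 and 5.50, 5.26 and 4.67 with both. The 6 samples with AI-10-104 all lay under the 6 samples without it. The fall was 0.58 on the log2 scale, from 7.38 ± 0.92 to 4.90 ± 0.43 RPKM (SD, n = 3; limma adjusted p = 0.0061). SH3RF3-AS1, which lies within 914 bases of the start of SH3RF3, a gene for a ubiquitin ligase scaffold, went from 1.62, 2.00 and 1.43 RPKM to 1.07, 1.19 and 0.943 RPKM (-0.60, SE 0.12, limma adjusted p = 0.020). With both compounds it was at 1.66, 1.34 and 1.44 RPKM and overlapped with DMSO.

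The fifth call was CELSR3-AS1, with the largest fitted change (-2.36, SE 0.56, limma adjusted p = 0.036) and the fewest reads. It had 5, 10 and 5 reads in the DMSO samples and 0, 1 and 2 with AI-10-104, which is 0.165 of the DMSO level per read counted (exact 95% interval 0.0314 to 0.556 for counting error only), and its fitted change depends on the pseudocount. SCOC-AS1, ZRANB2-AS1 and LINC00673 kept their calls under all alternatives run. SH3RF3-AS1 lost its call under 6 of 17 alternatives, among them leaving out DMSO replicates 1 or 2 or AI-10-104 replicates 1 or 3, and CELSR3-AS1 under 8 of 16, among them leaving out any one DMSO replicate or AI-10-104 replicate 1. Limma gave 21 genes higher (7.45%, beside 11.7% of all genes) and 17 lower (6.03%, beside 10.2%) at an unadjusted p under 0.05. All 5 calls were made without AI-10-104 replicate 2 too, where limma called 13 of these genes, 3 higher and 10 lower, beside 3.94% of all genes. TAPT1-AS1, called against DMSO only without it, was at 6.81 and 6.92 RPKM in AI-10-104 replicates 1 and 3, at 9.66 in replicate 2 and at 10.2, 9.16 and 9.31 in DMSO.

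**Figure D2:**
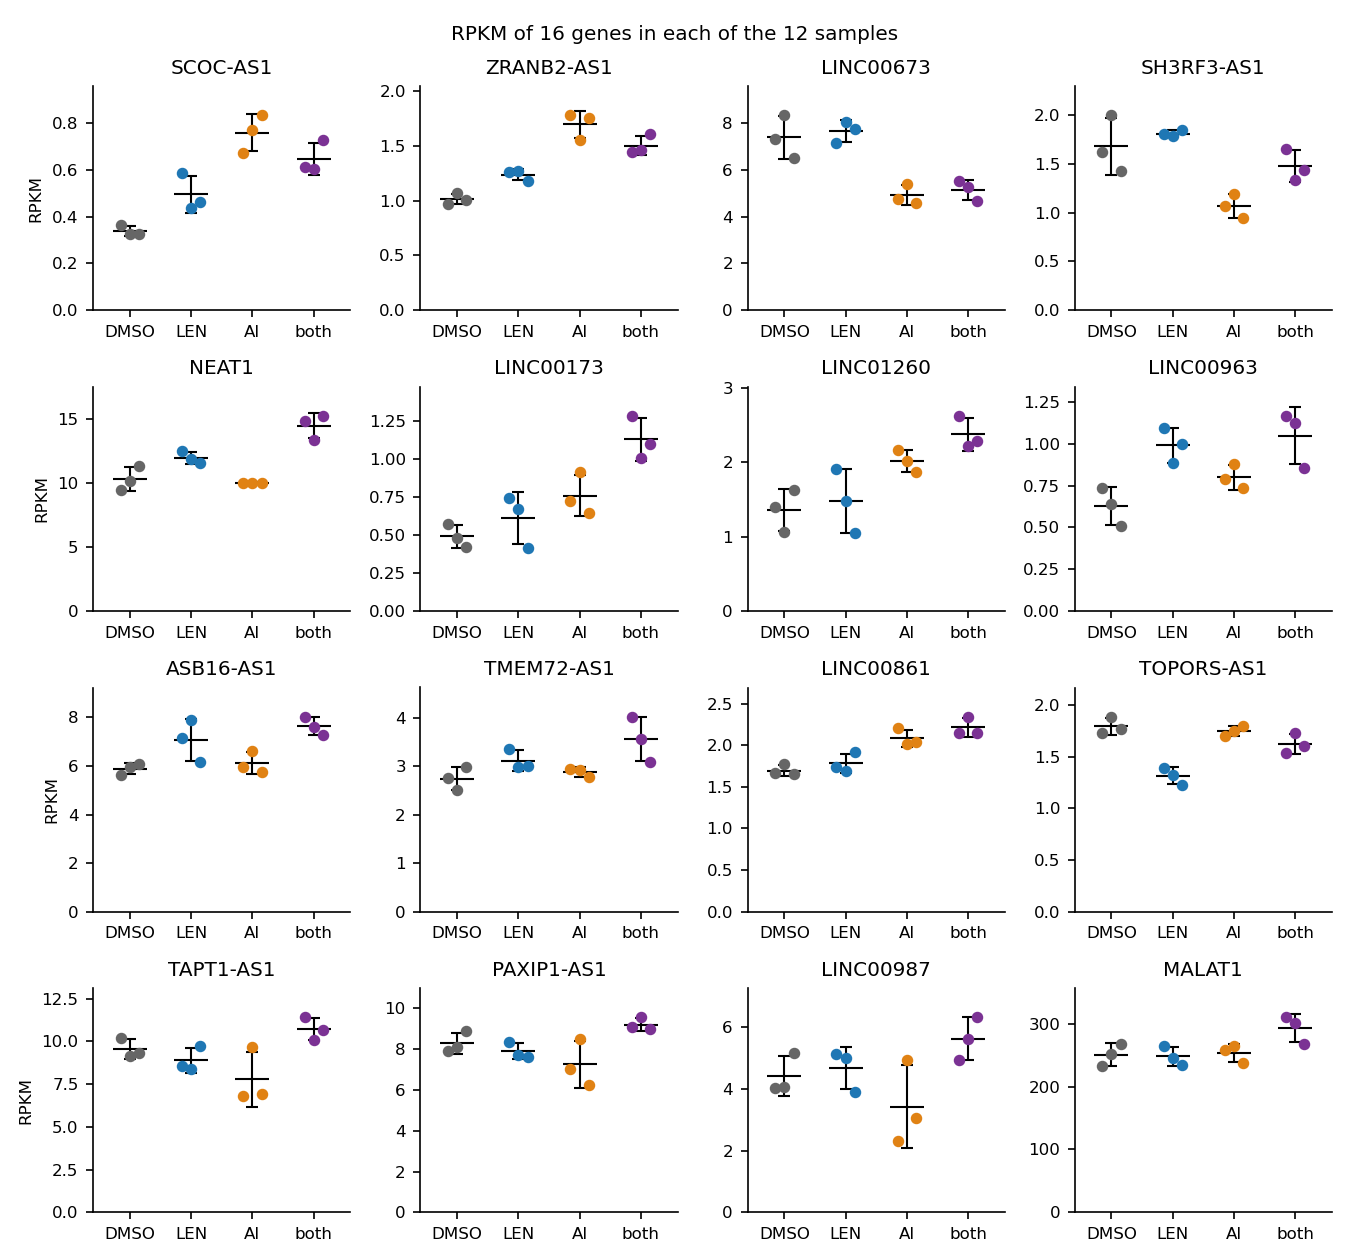
RPKM (vertical axes, from 0) of 16 genes in each of the 12 samples by condition, where AI is AI-10-104 and both is LEN+AI-10-104; points are samples, the horizontal bar is the mean and the error bar 1 SD (n = 3). SCOC-AS1 and ZRANB2-AS1 are highest with AI-10-104, LINC00673 is low in all 6 samples with AI-10-104, NEAT1 is highest with both, and in TAPT1-AS1, PAXIP1-AS1 and LINC00987 one AI-10-104 sample stands apart from the other two.

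LEN+AI-10-104 against DMSO gave the most calls of the 3 treatments, 10 higher and 1 lower, beside 2.3% of all genes higher and 0.641% lower. The 10 were 3.55% of the 282 genes. At an unadjusted p under 0.05 limma gave 49 higher (17.4%, beside 14.9% of all genes) and 8 lower (2.84%, beside 8.73%). NEAT1, on chromosome 11 (65422798 to 65445540), had by far the most reads among them, 4958 to 8236 per sample. It was at 9.45, 10.1 and 11.3 RPKM in DMSO, 12.5, 11.9 and 11.5 with LEN, 10.0, 9.97 and 10.0 with AI-10-104 and 14.8, 13.3 and 15.2 with both. The combination samples lay above the other 9, and NEAT1 rose by 0.49 (SE 0.07, limma adjusted p = 0.0011) from DMSO. From LEN it differed by 0.27 (SE 0.07, limma adjusted p = 0.040), which is under the 0.32 that a call needs. Values are per gene and from RNA selected for poly(A), so different transcripts of NEAT1 were not told apart. Paraspeckles themselves were not measured.

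LINC00173, an intergenic gene on chromosome 12 (116533422 to 116536513), had the largest rise of the 10. It was at 0.572, 0.479 and 0.422 RPKM in DMSO and 1.28, 1.01 and 1.10 RPKM with both, a difference of 1.06 (SE 0.20, limma adjusted p = 0.0073). It was at 0.744, 0.671 and 0.416 RPKM with LEN, which overlapped with DMSO, and at 0.723, 0.913 and 0.647 with AI-10-104, above DMSO and below the combination in every sample. LINC01260, on chromosome 20 (44656451 to 44671739), went from 1.40, 1.06 and 1.62 RPKM to 2.63, 2.22 and 2.29 RPKM (0.78, SE 0.19, limma adjusted p = 0.025). With AI-10-104 alone, on 57, 69 and 50 reads, it also lay above every DMSO sample and below every combination sample, without a call. All of its exon bases are shared with another annotated gene of the same strand, so its reads may not be its own. LINC00963 went to 1.17, 1.13 and 0.855 RPKM (0.66, SE 0.15, limma adjusted p = 0.022), on 23 to 61 reads per sample. LINC00963 lost its call under 6 of 16 alternatives. LINC01260 lost its call under 5 of 17, among them leaving out any one combination replicate.

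SCOC-AS1 and ZRANB2-AS1, which had risen with AI-10-104 alone, were also higher than DMSO in the combination. SCOC-AS1 was at 0.613, 0.606 and 0.728 RPKM there (0.77, SE 0.15, limma adjusted p = 0.0089) and ZRANB2-AS1 at 1.44, 1.46 and 1.61 RPKM (0.52, SE 0.08, limma adjusted p = 0.0033). LINC00673 was the only gene called lower (-0.51, SE 0.09, limma adjusted p = 0.0073). The remaining 4 higher calls had smaller differences, FRMD6-AS1 at 0.50, ASB16-AS1 at 0.37, LINC00861 at 0.36 and TMEM72-AS1 at 0.36, with limma adjusted p from 0.010 to 0.046. Of these 4, only LINC00861 lay above every DMSO sample with AI-10-104 alone too, without a call. With LEN alone, ASB16-AS1 and FRMD6-AS1 lay above every DMSO sample, also without a call. FRMD6-AS1 (0.557, 0.742 and 0.737 RPKM in DMSO, 0.924, 1.07 and 0.989 with both) lost its call under 12 of 16 alternatives and TMEM72-AS1 under 8 of 17.

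**Figure D3:**
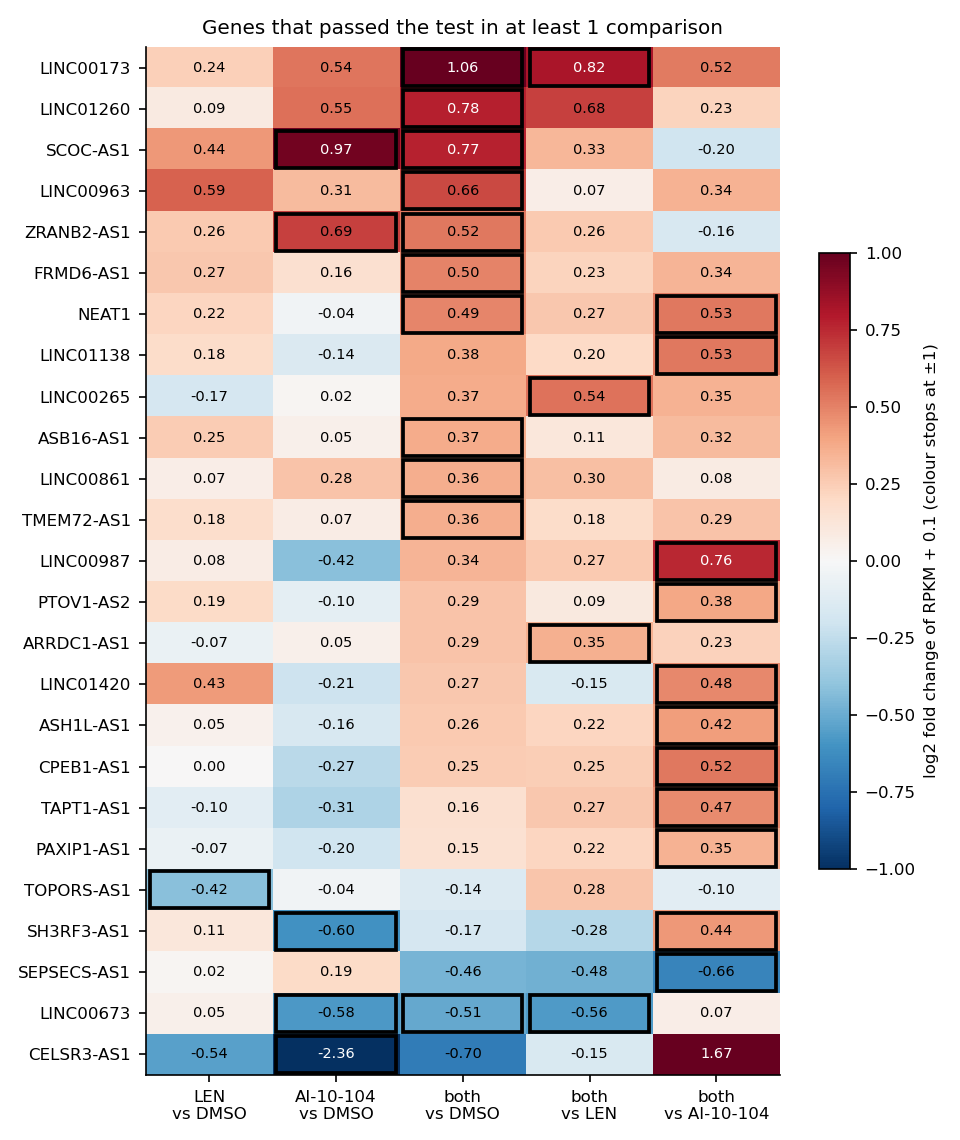
Difference in log2(RPKM + 0.1) of the 25 called genes (rows, sorted by LEN+AI-10-104 against DMSO) in 5 comparisons (columns, where both is LEN+AI-10-104); red is higher, blue lower, the colour stops at 1 in either direction, and a black frame marks a limma call. The NEAT1 frames (0.49 and 0.53) stand in the columns of both against DMSO and both against AI-10-104, and LINC00673 is framed under AI-10-104 against DMSO, both against DMSO and both against LEN (-0.58, -0.51 and -0.56).

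MALAT1 was at 232, 252 and 268 RPKM in DMSO, 264, 246 and 234 with LEN, 257, 265 and 237 with AI-10-104 and 310, 301 and 267 with both. The combination mean of 293 ± 22.4 RPKM (SD, n = 3) overlapped with DMSO in 1 sample, and the difference of 0.22 (SE 0.07) did not pass (limma adjusted p = 0.071). GAS5 was at 317, 333 and 333 RPKM in DMSO, 331, 330 and 318 with LEN, 308, 315 and 307 with AI-10-104 and 289, 331 and 315 with both. Its largest difference from DMSO was -0.08 (SE 0.04, limma adjusted p = 0.32), with AI-10-104. LRRC75A-AS1 was at 286, 285 and 288 RPKM in DMSO, 273, 294 and 269 with LEN, 231, 276 and 232 with AI-10-104 and 258, 263 and 280 with both, again with AI-10-104 replicate 2 nearer to DMSO than the other two. LINC01287 was at 70.6, 69.3 and 68.1 RPKM in DMSO and 80.0, 84.1 and 83.5 RPKM with both, a difference of 0.25 (limma adjusted p = 0.0026) under the 0.32 that a call needs.

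Adding AI-10-104 to LEN gave 3 higher calls and 1 lower, beside 0.872% of all genes higher and 0.810% lower. The lower call was LINC00673 again (-0.56, SE 0.09, limma adjusted p = 0.0062). LINC00173 (0.82, SE 0.20, limma adjusted p = 0.038), LINC00265 (0.54, SE 0.13, limma adjusted p = 0.042) and ARRDC1-AS1 (0.35, SE 0.07, limma adjusted p = 0.015) were higher. At an unadjusted p under 0.05 there were 50 higher (17.7%, beside 12.7% of all genes) and 5 lower (1.77%, beside 7.9%). LINC00265 lost its call under 9 of 16 alternatives and LINC00173 under 7 of 16, each of them when any one combination replicate was left out. LINC00265, whose promoter holds a RUNX core, was at 0.532, 0.692 and 0.576 RPKM with LEN and 0.932, 0.869 and 0.939 with both. ARRDC1-AS1 was at 8.42, 8.35 and 8.79 RPKM with LEN and 12, 10.6 and 10.2 with both.

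Adding LEN to AI-10-104 gave 10 higher calls and 1 lower, beside 3.16% of all genes higher and 0.471% lower. At an unadjusted p under 0.05 there were 55 higher (19.5%, the same share as of all genes) and 7 lower (2.48%, beside 13.6%). NEAT1 rose by 0.53 (SE 0.07, limma adjusted p = 0.0011) and PTOV1-AS2, from 4.74, 4.25 and 4.28 RPKM to 5.61, 5.61 and 6.18 RPKM, by 0.38 (SE 0.08, limma adjusted p = 0.011). These 2 calls were kept under all alternatives run. LINC01138 rose by 0.53, ASH1L-AS1 by 0.42, CPEB1-AS1 by 0.52, LINC01420 by 0.48, SH3RF3-AS1 by 0.44, LINC00987 by 0.76, PAXIP1-AS1 by 0.35 and TAPT1-AS1 by 0.47, with limma adjusted p from 0.013 to 0.044. None of these, nor PTOV1-AS2, was called in the combination against DMSO. The lower call against AI-10-104 was SEPSECS-AS1 (-0.66, SE 0.18, limma adjusted p = 0.031), from 1.14, 0.846 and 1.08 RPKM to 0.551, 0.709 and 0.568 RPKM. SEPSECS-AS1 lost its call under 7 of 16 alternatives, among them voom.

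This comparison leaned on single samples. Without AI-10-104 replicate 2, limma called 29 of the genes, 24 higher and 5 lower, including 10 of the 11 calls (LINC01420 was lost), beside 6.8% of all genes. Without AI-10-104 replicate 1 or replicate 3 it called 4. PAXIP1-AS1 lost its call under 8 of 17 alternatives and SH3RF3-AS1 and LINC01420 under 9 of 17 each. LINC00987 was at 2.31 and 3.04 RPKM in AI-10-104 replicates 1 and 3 and at 4.93 in replicate 2, with 4.92, 5.62 and 6.31 RPKM for both compounds. PAXIP1-AS1 was at 7.02 and 6.24 RPKM in those replicates, 8.49 in replicate 2, and 9.05, 9.53 and 8.97 RPKM with both.

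Whether the response to both compounds differed from the sum of the single responses was tested with the interaction term. Limma called 0 of the 282 genes and 0 of all 11241, and at an unadjusted p under 0.05 it gave 30 higher (10.6%, beside 9.04% of all genes) and 6 lower (2.13%, beside 5.38%). By voom on the recovered reads 0 of the 282 were called. NEAT1 had an interaction of 0.31 (SE 0.09, limma adjusted p = 0.28). Without AI-10-104 replicate 2, 7 genes were called, beside 4.8% of all genes, among them USP2-AS1 (0.96), LINC00987 (0.97), TAPT1-AS1 (0.74), PAXIP1-AS1 (0.53) and LRRC75A-AS1 (0.24) above the sum and ZRANB2-AS1 (-0.48) below it.

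With both compounds most of the genes lay above their DMSO level. The median log2 difference of the 282 genes from DMSO was 0.10 with LEN+AI-10-104, with 68.8% above 0, beside 0.02 and 57.2% for all genes tested. It was -0.01 with LEN and near 0 (-0.003) with AI-10-104. LINC genes (0.10, 72.3% above 0) and antisense genes (0.09, 67.9%) had similar medians. Samples of the combination and DMSO did not overlap for 54 genes higher (19.1%, beside 18.1% of all genes) and for 10 lower (3.55%, beside 11.1%).

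Sample by sample, the median difference of the 282 genes from the DMSO mean was 0.076, 0.10 and 0.12 in the combination, while the other 9 samples lay from -0.049 to 0.038. Other faint genes also lay above 0. Genes without these symbols under 2 RPKM had a median of 0.07 in the combination against DMSO, with 64.0% above 0, beside 0.11 and 65.1% for the 172 noncoding and antisense genes under 2 RPKM. At 2 RPKM or more the 110 noncoding and antisense genes had a median of 0.09, other genes from 2 to under 10 RPKM 0.03, and other genes at 10 RPKM or more 0.002. The combination samples had 16352548 to 20419807 reads, fewer than most others, and the part of depth in this shift was not tested. With quantile normalization the median fell to 0.04, and it was -0.01 for all genes.

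**Figure D4:**
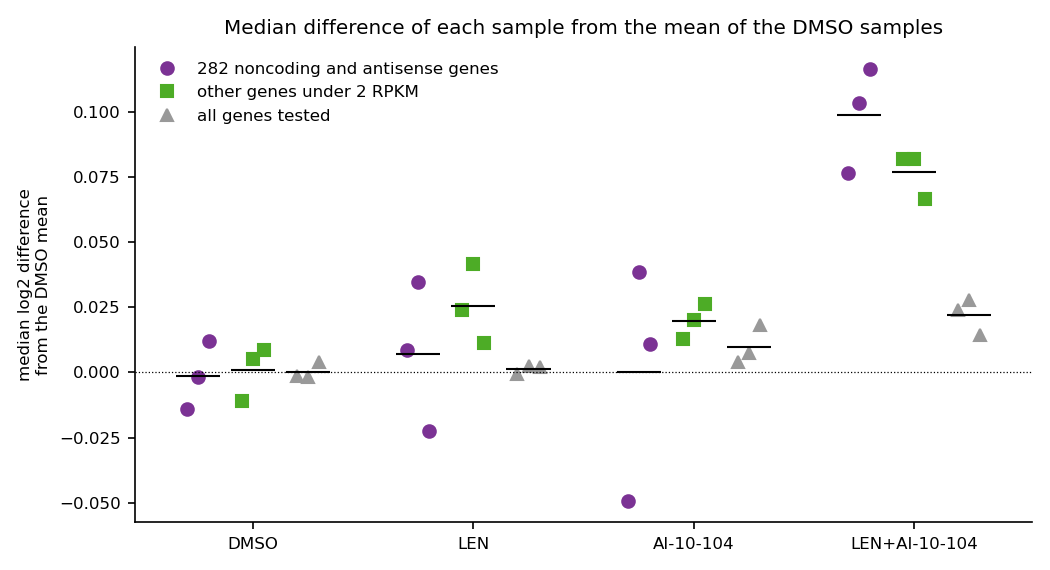
Median difference in log2(RPKM + 0.1) of each sample from the mean of the DMSO samples (vertical axis), for the 282 noncoding and antisense genes, other genes under 2 RPKM and all genes tested, by condition; points are samples and bars the mean of 3. Only the combination samples lie clear of the others, at 0.076 to 0.12 for the 282 genes, and the other faint genes, at 0.067 to 0.082, lie closer to them than all genes do.

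Antisense genes were set beside their sense partners, since the question is often whether both strands move together. Of the 196 antisense and intronic genes, 192 had a partner in the matrix and 162 a partner that was tested. The antisense gene was the lower of the pair in 136 of 192 pairs. By RefSeq position 87 overlapped with the partner, 42 were divergent, 32 of these with starts within 1000 bases, 5 were convergent and 3 were on the same strand, while the others could not be placed. In the combination against DMSO 5 antisense genes were called and 1 partner with them, TMEM72 with TMEM72-AS1. TMEM72 was at 18.7, 19.6 and 17.5 RPKM in DMSO and 23.8, 25.4 and 22.8 with both (0.37, SE 0.06, limma adjusted p = 0.0032), and TMEM72-AS1 at 2.75, 2.51 and 2.99 and at 4.03, 3.58 and 3.10 RPKM. Only 1.25% of the exon bases of TMEM72-AS1 lie under exons of the other strand.

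The partners of the other called genes were not called in the same comparison. SCOC was at 27.6, 28.3 and 30.3 RPKM in DMSO and 31.8, 30.3 and 32.5 with AI-10-104 (0.13, SE 0.05, limma adjusted p = 0.18), where SCOC-AS1 rose by 0.97. ZRANB2 differed by 0.05 (SE 0.05, limma adjusted p = 0.58) and SH3RF3 by -0.24 (SE 0.07, limma adjusted p = 0.067) with AI-10-104. TOPORS, a ubiquitin and SUMO ligase gene, differed by 0.03 (SE 0.07, limma adjusted p = 0.94) with LEN. ASB16, at 2.55, 3.08 and 2.46 RPKM in DMSO and 3.85, 3.83 and 2.95 with both, differed by 0.38 (SE 0.12, limma adjusted p = 0.085) where ASB16-AS1 rose by 0.37. CPEB1 was listed at 0 in all samples while CPEB1-AS1 was at 1.07 to 2.09 RPKM. Across the 162 pairs in the combination against DMSO both differences were above 0 in 62, both below 0 in 24 and of opposite sign in 76, and Pearson's r between the 2 differences was 0.18, a description across pairs that share libraries.

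**Figure D5:**
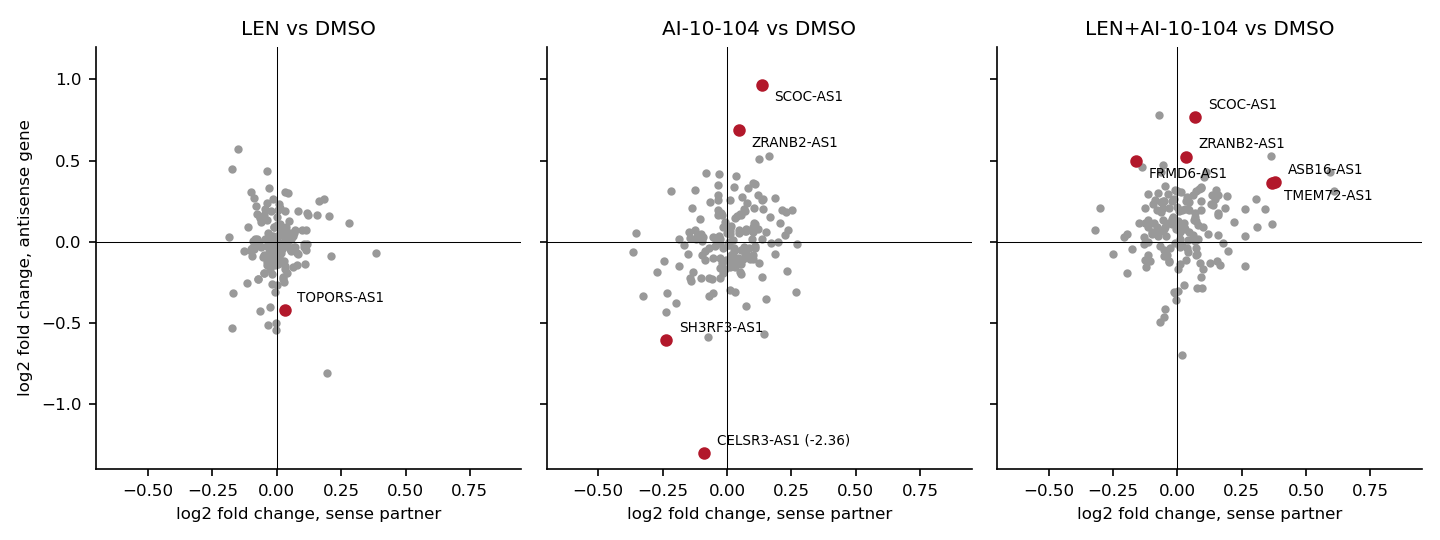
Difference in log2(RPKM + 0.1) from DMSO of the antisense gene (vertical axis) against that of its sense partner (horizontal axis) for 162 pairs, by treatment; red points are antisense genes that limma called, and CELSR3-AS1 (-2.36) is drawn at the edge. Most called antisense genes lie close to the vertical line where the difference of the partner is 0. TMEM72-AS1 and ASB16-AS1 lie to its right in the combination (0.37 and 0.38), and SH3RF3-AS1 lies to its left with AI-10-104.

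Among the protein-coding genes nearest to a called gene, TMEM72, ADA and FRMD8 were called in the same comparison. The other neighbours were not called together with their gene or were too low to be tested. Of all genes, 2.3% were called higher in the combination against DMSO and 3.16% in the combination against AI-10-104. ADA, the adenosine deaminase gene 4752 bases from LINC01260, was at 133 RPKM on average and rose by 0.64 in the combination against DMSO (limma adjusted p = 8.0e-07), where LINC01260 rose by 0.78. FRMD8, 9273 bases from NEAT1, differed by 0.16 from DMSO (limma adjusted p = 0.16) and rose by 0.37 from AI-10-104 (limma adjusted p = 0.0072). SLC39A11, the zinc transporter gene nearest to LINC00673, differed by -0.01 with AI-10-104 (limma adjusted p = 0.99).

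Other noncoding genes that the symbol rule leaves out gave no limma calls with all 12 samples. Of 19 snoRNA host genes tested, among them SNHG1 at 332 RPKM and ZFAS1 at 47.4 RPKM, limma called 0 in the 5 comparisons. At an unadjusted p under 0.05 it gave 1 higher and 3 lower with AI-10-104 (beside 11.7% and 10.2% of all genes) and 4 higher and 1 lower in the combination against AI-10-104 (beside 19.5% and 13.6%). By voom SNHG25 and SNHG6 were lower with AI-10-104 and higher in the combination against AI-10-104. Their AI-10-104 samples were split: SNHG25 was at 17.4 and 17.9 RPKM in replicates 1 and 3 and at 52.5 in replicate 2, within the 38.8 to 53.3 of the DMSO samples, and SNHG6 was at 69.0 and 61.6 and at 116, within 109.5 to 122. Without AI-10-104 replicate 2, limma called 5 of the 19 lower with AI-10-104 (SNHG6, SNHG7, SNHG8, SNHG9 and SNHG25). It called 6 higher in the combination against AI-10-104, those 5 and SNHG20. In these 2 comparisons without that sample, limma called 3.94% and 6.8% of all genes in either direction. Of 13 other named long noncoding RNA genes, such as NORAD at 71.5 RPKM and DANCR at 244 RPKM, limma and voom called 0, at most 2 were higher and 2 lower at an unadjusted p under 0.05, and without AI-10-104 replicate 2 limma called CRNDE and DLEU2 higher in the combination against AI-10-104. Of 18 genes for paraspeckle proteins, which assemble on NEAT1, limma and voom called 0 as well, and without AI-10-104 replicate 2 limma again called 0 in the comparisons of AI-10-104 with DMSO and with the combination. There were 0 higher and 5 lower at an unadjusted p under 0.05 in the combination against DMSO (beside 14.9% and 8.73% of all genes) and 5 higher and 3 lower in the combination against AI-10-104. NONO, a core paraspeckle protein, differed by 0.03 from DMSO in the combination (limma adjusted p = 0.66) and SFPQ by -0.07 (limma adjusted p = 0.34), where NEAT1 rose by 0.49. Of the 8 plasma cell markers, only XBP1 was called with all 12 samples, lower in the combination against AI-10-104. Its mean was 509 RPKM in DMSO, 632 with AI-10-104 and 495 with both, and it was not called in the combination against DMSO.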

How the data were processed

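RNA of OPM-1 cells was selected for poly(A), sequenced on a NextSeq 500 with a directional kit, and aligned by the authors with STAR to GRCh38. FastQC, Cuffnorm and DESeq2 are also named in the submitters' processing notes, and the strand setting of the counting is not given in the sources used here. The deposited table holds RPKM per gene, computed by the authors on gene lengths it lists, with 1 column per sample. Dividing out length gave whole reads for 100% of values (tolerance 0.05), with 16352548 to 31386210 per sample; intervals cover counting error only.

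The 11241 genes averaging 0.5 RPKM or more entered the test on log2(RPKM + 0.1) with limma 3.58.1 in R 4.3.3, in 1 fit over all 12 samples with a variance trend and Benjamini-Hochberg adjustment. A call needed an adjusted p no higher than 0.05 together with a log2 difference of 0.32 or more in size, or the adjusted p alone for the interaction. Sequences and positions are RefSeq GRCh38.p14 (218 of 282 symbols matched directly, 64 as synonyms) and exon overlaps GENCODE (268 matched). Named genes were MALAT1, NEAT1 and GAS5, the 10 highest, all called ones, the 3 with the largest difference from DMSO per treatment whose samples did not overlap, the 2 on either side of the minimum, and sense partners. Those called only without AI-10-104 replicate 2 were named after their values were seen. The genes and lists were chosen with earlier results of these data known. Alternatives were other pseudocounts, filters and scalings, voom on the recovered reads, fits of the compared conditions only, a replicate block and each sample left out. The script was tested on simulated data.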

Additional observations from a re-analysis of the deposited data

Results flagged for a closer look

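Rows with these symbols under the minimum of 0.5 RPKM entered no comparison above. When every gene with any value above 0 was tested (24115), 839 such rows entered, and limma called 5 higher than DMSO in a single treatment, which is what singled them out. With AI-10-104 2 were higher (0.238%, beside 0.236% of all rows tested), and 0 lower (beside 0.369%). With LEN+AI-10-104 3 were higher (0.358%, beside 0.921%) and 1 lower (0.119%, beside 0.311%), CDKN2A-AS1, at 0.414, 0.591 and 0.457 RPKM in DMSO and 0.0836, 0.199 and 0.239 with both (-1.14, SE 0.25, limma adjusted p = 0.044), on 1 to 11 reads per sample. STARD4-AS1, named after a cholesterol transfer protein gene, had the most reads, 36 to 63 per sample. It was at 0.271, 0.240 and 0.374 RPKM in DMSO and 0.559, 0.564 and 0.496 RPKM with LEN+AI-10-104, a mean of 0.540 (log2 difference 0.71, SE 0.15, limma adjusted p = 0.041). LINC00853 was at 0.0964, 0.100 and 0.0710 RPKM in DMSO and 0.467, 0.278 and 0.445 with both, a mean of 0.397 (1.37, SE 0.28, limma adjusted p = 0.034), on 1 to 6 reads per sample. EFCAB14-AS1 was listed at 0 in the 3 DMSO samples and at 0.265, 0.209 and 0.587 RPKM with both, a mean of 0.354, on at most 7 reads.

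With AI-10-104, PARD3-AS1 was listed at 0 in the 3 DMSO samples and at 0.391, 0.402 and 0.256 RPKM, a mean of 0.350, on at most 4 reads. BHLHE40-AS1 was at 0.0235, 0.0122 and 0.0173 RPKM in DMSO and 0.0808, 0.0873 and 0.143 with AI-10-104, a mean of 0.104 (0.78, SE 0.15, limma adjusted p = 0.038), on 1 to 9 reads. Groups of 3 samples are too small for a test of single outlying samples.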

How the results depend on the processing

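Of the 32 calls, 9 were kept under every alternative run: LINC00673 in 3 comparisons, NEAT1 in 2, and SCOC-AS1, ZRANB2-AS1, LINC00173 and PTOV1-AS2 in 1 each. No filter on low values lost 17 of 32, a fit of the compared conditions only 16, a pseudocount of 1 lost 9, quantile normalization 7 and voom 3. The cause was not tested. Numbers of called genes moved by over 1.5 times as follows. LEN against DMSO went from 1 to 0 with a pseudocount of 1, with no filter, with the compared conditions only and with voom. AI-10-104 against DMSO went from 5 to 3 with a minimum of 1 RPKM, no filter or the compared conditions only, and to 8 with no fold threshold. LEN+AI-10-104 against DMSO went from 11 to 6 with a pseudocount of 1, to 7 with a minimum of 1 RPKM or no filter, and to 21 with no fold threshold. LEN+AI-10-104 against LEN went from 4 to 2 with a minimum of 1 RPKM, no filter or the compared conditions only and to 8 with no fold threshold. LEN+AI-10-104 against AI-10-104 went from 11 to 3 with no filter or the compared conditions only and to 20 with no fold threshold.

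With single samples left out, the calls ranged from 0 to 1 for LEN against DMSO, 3 to 13 for AI-10-104 against DMSO, 7 to 12 for LEN+AI-10-104 against DMSO, 2 to 6 against LEN, 4 to 29 against AI-10-104 and 0 to 7 for the interaction; AI-10-104 replicate 2 was the sample left out at the high end of the 3 comparisons that use the AI-10-104 samples. The median of the genes in the combination was 0.068 against DMSO, 0.068 against LEN and 0.070 against AI-10-104 with a pseudocount of 1, 0.036, 0.053 and 0.049 with quantile normalization, and 0.070 against DMSO and 0.081 against LEN with median-ratio rescaling. It ranged from 0.081 to 0.120 against LEN with single samples left out. Small differences from DMSO changed sign: with LEN, MALAT1 was 0.012 and GAS5 0.0054 with quantile normalization, and without single samples MALAT1 ranged from -0.069 to 0.033 and GAS5 from -0.029 to 0.014; with AI-10-104, MALAT1 ranged from -0.039 to 0.064 and NEAT1 from -0.099 to 0.032. Same-numbered samples were only weakly alike (mean correlation of deviations 0.052 in 18 same-numbered pairs, from -0.027 to 0.16, and -0.026 in 36 others). The main fit had no replicate block. With a replicate block no call was lost, and calls went from 4 to 9 (8 higher) against LEN and from 11 to 19 (17 higher) against AI-10-104. Apart from the fits without AI-10-104 replicate 2, shares of all genes called under these alternatives are not given. Whether the calls of the noncoding and antisense genes moved more than those of all genes was not tested.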
